A study of Mus musculus with 9 samples.

Results

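Tubulins and stathmins that neurons express were followed in mouse Sonic Hedgehog medulloblastoma, a tumour of the cerebellum, and in normal cerebellum. The set was defined by gene symbol: 5 beta tubulins (Tubb3, Tubb2a, Tubb2b, Tubb5 and Tubb4a), the alpha tubulin Tuba1a and 4 stathmins (Stmn1, Stmn2, Stmn3 and Stmn4), which is 10 of the 23360 genes listed in each table. All 10 were present in all 9 libraries and passed the filter on low values, which kept 14337 genes. Ribosome-depleted total RNA had been sequenced on an Ion Proton. There were 3 libraries each of A1G tumours (primary tumours of Math1-cre;A1G;Ptch1+/- mice of mixed strain), Ptch1 tumours (Ptch1+/- mice of mixed strain) and cerebellum of wild-type adult C57BL/6 mice. Math1-cre drives the recombinase in the Atoh1 lineage, which includes granule neuron progenitors. The design text describes the first tumours as driven by ATOH1 together with aberrant SHH signalling. Both tumour groups carried the Ptch1+/- genotype, and the cerebellum differed from them in strain as well as in tissue, so those effects cannot be told apart in the comparisons with cerebellum. The labels give no ages of tumour-bearing mice and do not say that libraries came from separate animals, so p-values measure the spread between these libraries.

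Microtubules are polymers of alpha and beta tubulin dimers, and each subunit comes in several isotypes encoded by separate genes. Beta isotypes differ mainly in their acidic C-terminal tails, where motors and modifying enzymes bind. Stathmins bind free tubulin dimers and favour microtubule disassembly: stathmin 1 is cytosolic and abundant in dividing and immature cells, whereas stathmins 2, 3 and 4 carry an N-terminal extension that anchors them to membranes in neurons.

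Library depth ranged from 2350941 to 9290237 fragments. Ptch1 itself was at 52.8 to 299.7 normalised CPM over the tumours and 55.9 to 180.9 in cerebellum, and fragments do not separate the alleles. Atoh1 was at 295.7 to 652.4 CPM in A1G tumours, 278.9 to 404.6 in Ptch1 tumours and 0 to 16.4 in cerebellum, so the tumour kinds overlapped. Marker lists separated tissue from tumour: 10 of 10 proliferation markers were called higher in tumours than in cerebellum. Called lower were 10 of 10 mature neuron, 8 of 8 Purkinje cell and 8 of 8 oligodendrocyte markers. Over all tested genes 20.7% were called higher and 21.5% lower. For the proliferation marker Mki67, A1G replicate 2 stood apart from the other tumours, at 620.3 CPM against 2597 to 3946 in the other 5. Top2a, Ccnb1, Ccna2, Bub1, Aurkb and Mcm2 were also lowest there among the tumours. Cdk1 (39.9), Plk1 (37.4) and Pcna (83.3) lay within the range of the other tumours. In bulk RNA, fewer cells of a type and less RNA per cell cannot be told apart.

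Levels below are normalised CPM, fragments scaled to library size with TMM factors over all 9 libraries, and are compared between libraries for 1 gene. Levels of different genes are compared as FPKM, which divides by length. A gene was called where its adjusted p in edgeR's quasi-likelihood fit (Benjamini-Hochberg, every tested gene included) was under 0.05, and ± gives the standard error of a log2 difference. This error was derived from the test, as the size of the difference divided by the square root of the F statistic. The intervals rest on it.

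Tumours carried more Tubb5, Stmn1, Tubb2b and Tuba1a and less Tubb4a and Stmn3 than cerebellum, while Tubb3, Tubb2a, Stmn2 and Stmn4 were not called. The 4 members called higher compare with 20.7% of all tested genes, and the 2 called lower with 21.5%. For the same 6 members the tumour and cerebellum libraries did not overlap, which held for 38.2% of tested genes. The median log2 difference was 0.36 over the members and 0.01 over all tested genes. The set as a whole did not move in 1 direction.

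**Figure D1:**
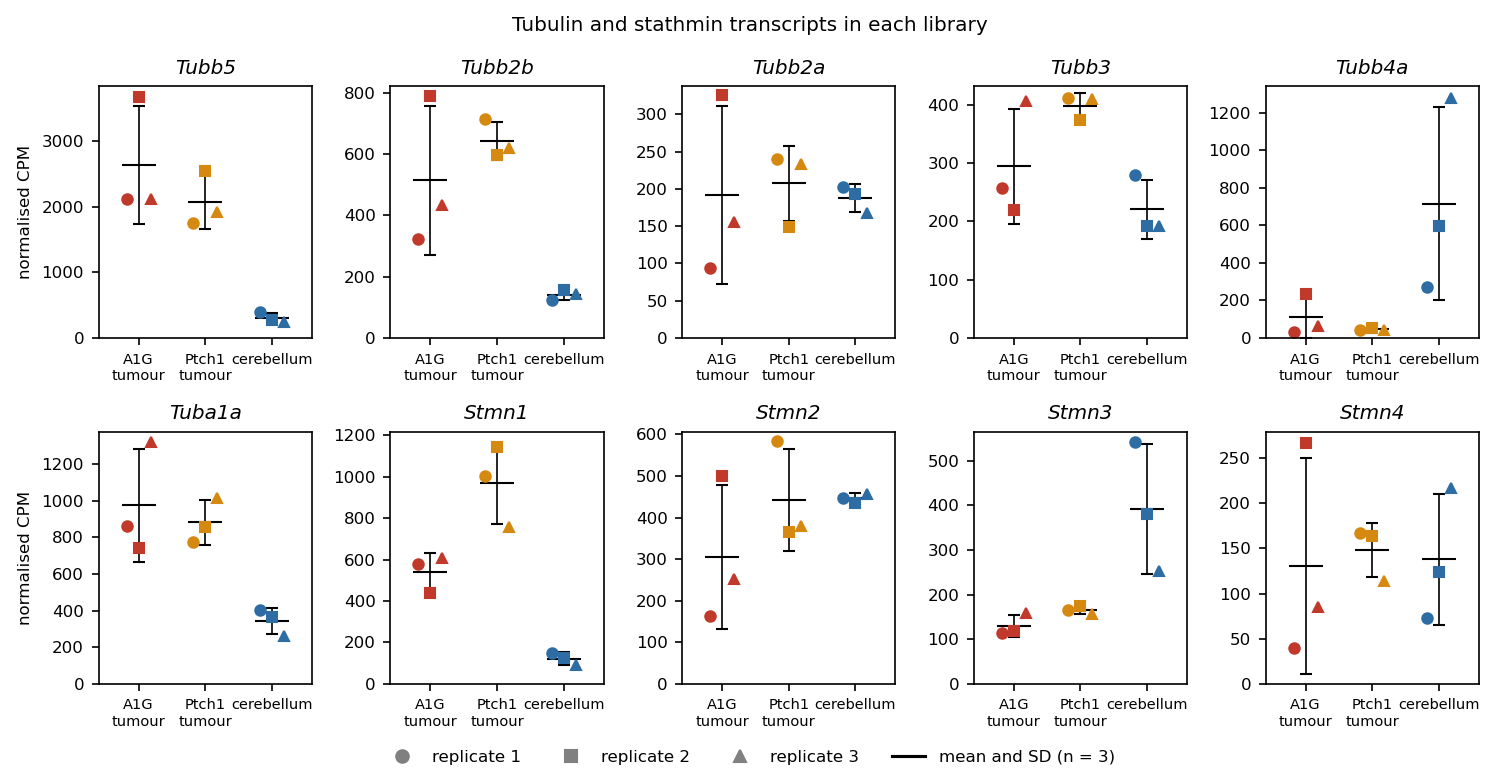
Normalised CPM (linear axis from 0) of each of the 10 genes in each library, by group; symbols mark the replicate number and the bar the mean with SD (n = 3). Tubb5, Tubb2b, Tuba1a and Stmn1 lie higher in all 6 tumours than in cerebellum, Tubb4a and Stmn3 lie lower, and A1G replicate 2 (red square) is the highest tumour for Tubb5, Tubb2b, Tubb2a, Tubb4a and Stmn4.

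The beta tubulin tails show how far the isotypes differ and where fragments can be assigned. The last 60 coding bases before the stop codon, from the GENCODE M21 transcripts (GRCm38/mm10), are written here 5′ to 3′. Capitals mark bases that differ from the aligned Tubb5 base or have no Tubb5 base aligned to them.
Tubb5: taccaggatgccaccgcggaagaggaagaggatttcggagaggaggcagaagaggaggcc
Tubb4a: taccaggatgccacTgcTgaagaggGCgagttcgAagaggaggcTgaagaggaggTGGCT
Tubb2a: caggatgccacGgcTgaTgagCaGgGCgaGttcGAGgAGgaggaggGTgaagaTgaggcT
Tubb2b: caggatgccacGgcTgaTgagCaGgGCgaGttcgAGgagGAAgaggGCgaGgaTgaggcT
Tubb3: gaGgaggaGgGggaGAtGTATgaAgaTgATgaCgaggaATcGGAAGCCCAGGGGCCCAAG
Tubb3 held 35 capitals of 60 and Tubb4a 11. The coding sequence of Tubb3 has 1350 bases and that of Tubb5 1332, so some Tubb3 bases have no Tubb5 counterpart. Read position by position, Tubb2a and Tubb2b differed from each other at 3 of the 60. Over the aligned bases of the whole coding sequence Tubb2a and Tubb2b were 96.5% identical, while the other pairs among these 5 genes were 82.1% to 84.7% identical.

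Tubb5, the beta tubulin of most dividing cells and of the developing brain (chromosome 17, 35833921 to 35838306, minus strand), was at 2122, 3667 and 2114 CPM in A1G tumours, at 1749, 2539 and 1919 in Ptch1 tumours, and at 393.7, 278.8 and 242.2 in cerebellum (replicates 1, 2 and 3 in that order, here and below). Every tumour lay above every cerebellum library. The tumours were 7.66-fold higher (log2 2.94 ± 0.32, adjusted p = 1.96e-05 by edgeR). Only 0.115% of the 50-base stretches of its transcript occur in transcripts of another gene.

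Tubb2b, a beta tubulin of migrating and growing neurons (chromosome 13, 34126748 to 34130466, minus strand), was at 322.5, 788.5 and 432.6 CPM in A1G tumours, 713.2, 595.1 and 619.5 in Ptch1 tumours and 123.2, 156.3 and 144.8 in cerebellum. All tumours were above all cerebellum libraries, and the A1G tumours spread more widely than the Ptch1 tumours. The difference was 4.07-fold (log2 2.02 ± 0.31, adjusted p = 2.11e-04 by edgeR).

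Its neighbour and near copy Tubb2a (chromosome 13, 34074274 to 34078007, minus strand), expressed in the brain into adulthood, was at 94.0, 325.3 and 155.9 CPM in A1G tumours, 240.0, 149.3 and 232.9 in Ptch1 tumours and 202.2, 193.7 and 166.9 in cerebellum. Tumours lay both above and below the cerebellum range, and A1G replicates 1 and 2 were the lowest and the highest of all 9 libraries. The log2 difference was 0.09 ± 0.34, with a 95% interval of -0.64 to 0.82 (adjusted p = 0.854 by edgeR). The ratio of Tubb2b to Tubb2a by FPKM was 1.98 to 3.25 in tumours and 0.50 to 0.71 in cerebellum.

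Reads of this pair are hard to assign. In Tubb2a 49.6% and in Tubb2b 39.3% of 50-base stretches occur in another gene's transcripts, chiefly each other's, and the sources used here do not state how the authors assigned such reads. Tubb2a-ps2, a processed pseudogene 97.8% identical to Tubb2b and 95.3% to Tubb2a over the aligned bases, was listed at 83.9 to 272.5 CPM in tumours and 21.4 to 36.5 in cerebellum. By FPKM it stood 1.43 to 3.94 times as high as Tubb2a in tumours and 0.36 to 0.53 times in cerebellum. With Tubb2a and Tubb2b summed, the pair was called higher in tumours (log2 1.24 ± 0.31, adjusted p = 0.00604 by edgeR), and with the pseudogene added the value was 1.39 ± 0.30 (adjusted p = 0.00280). The separate values of these genes are therefore uncertain, and the sum is called under both ways of adding.

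Tubb3, the beta tubulin widely used as a marker of neurons (chromosome 8, 123411424 to 123422015, plus strand, overlapping Gm20388 on the same strand), was at 256.6, 219.3 and 405.9 CPM in A1G tumours, 411.9, 373.8 and 408.8 in Ptch1 tumours and 279.2, 192.2 and 191.1 in cerebellum. All 3 Ptch1 tumours and A1G replicate 3 were above cerebellum, while A1G replicates 1 and 2 were within its range. Over all tumours the log2 difference was 0.63 ± 0.25 and not called (adjusted p = 0.0635 by edgeR, range 0.0201 to 0.213 over the alternatives). It was called without A1G replicate 2 (0.72, adjusted p = 0.0277), without cerebellum replicate 1 (0.84, adjusted p = 0.0413) and after a correction for GC content (0.94, adjusted p = 0.0201, and 0.0211 with the replicate block added). With all libraries, limma also called it at both pseudocounts (adjusted p = 0.0471 and 0.0444). The Ptch1 tumours taken alone were called 1.80-fold higher than cerebellum (log2 0.85 ± 0.29, adjusted p = 0.0327 by edgeR). That call was lost when any Ptch1 tumour or cerebellum replicate 2 or 3 was left out (adjusted p = 0.0556 to 0.119).

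Tubb4a, a brain beta tubulin abundant in myelinating oligodendrocytes and in neurons (chromosome 17, 57080066 to 57087782, minus strand), showed the opposite pattern to Tubb5. It was at 31.0, 234.5 and 65.0 CPM in A1G tumours, 44.0, 53.6 and 42.9 in Ptch1 tumours and 268.9, 598.1 and 1277 in cerebellum. The groups did not overlap, although A1G replicate 2 came close to cerebellum replicate 1, and cerebellum itself spread widely. Tumours were 9.93-fold lower (log2 -3.31 ± 0.54, adjusted p = 3.73e-04 by edgeR). The log2 value was -3.91 without A1G replicate 2 and -2.57 without cerebellum replicate 3, called in both. The 8 oligodendrocyte markers summed to 67.7 to 432.0 CPM in tumours and 7680 to 8191 in cerebellum, with Mbp at 50.2 to 265.8 against 4175 to 4653 and Opalin at 0 in all 6 tumours. Within cerebellum the sum was 8191, 7680 and 7735 CPM in replicates 1, 2 and 3. The part of these markers in the Tubb4a difference was not tested.

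Tuba1a, the main alpha tubulin of newborn neurons (chromosome 15, 98949837 to 98953703, minus strand, overlapping Gm49450 on the same strand), was at 862.2, 741.0 and 1323 CPM in A1G tumours, 775.5, 858.3 and 1017 in Ptch1 tumours and 400.8, 364.3 and 263.8 in cerebellum. Every tumour was above every cerebellum library. The difference was 2.71-fold (log2 1.44 ± 0.27, adjusted p = 0.00105 by edgeR). Tuba1a shares 75.5% of its 50-base stretches with other genes and is 98.3% identical to Tuba1b in coding sequence, so its own value is uncertain. Tuba1a, Tuba1b and Tuba1c summed gave a log2 difference of 1.42 ± 0.27 (adjusted p = 0.00110 by edgeR), and Tuba1b and Tuba1c were each called higher, by 1.44 and 1.25.

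The first 90 coding bases of the stathmins show the part in which stathmin 1 differs from the neuronal members. They come from the same GENCODE transcripts, 5′ to 3′ from the start codon, with in-frame cysteine codons in capitals; the cysteines of the N-terminal extension carry the palmitate that holds these proteins on membranes.
Stmn1: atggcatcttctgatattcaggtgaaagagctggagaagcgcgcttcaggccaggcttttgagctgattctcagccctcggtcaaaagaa
Stmn2: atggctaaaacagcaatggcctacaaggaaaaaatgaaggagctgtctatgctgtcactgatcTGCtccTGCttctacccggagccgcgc
Stmn3: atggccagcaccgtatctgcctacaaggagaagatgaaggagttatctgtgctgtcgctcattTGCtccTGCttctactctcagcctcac
Stmn4: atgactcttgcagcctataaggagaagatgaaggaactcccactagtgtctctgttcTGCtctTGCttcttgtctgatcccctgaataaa
Stmn2 and Stmn3 have these codons at positions 22 and 24 and Stmn4 at 20 and 22, while the 149 codons of Stmn1 hold none. The reading frames of Stmn2, Stmn3 and Stmn4 are longer, at 179, 180 and 189 codons. Coding identity between stathmins was 68.0% to 73.6% over the aligned bases, which leaves out bases without a counterpart. No 50-base stretch of Stmn2, Stmn3 or Stmn4 occurred in another gene.

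Stmn1, the cytosolic stathmin (chromosome 4, 134468320 to 134473843, plus strand), was at 579.1, 437.3 and 608.6 CPM in A1G tumours, 1002, 1143 and 757.4 in Ptch1 tumours and 149.95, 123.1 and 89.5 in cerebellum. The 3 groups were fully separated, with Ptch1 tumours highest and cerebellum lowest. Tumours were 5.99-fold higher than cerebellum (log2 2.58 ± 0.28, adjusted p = 1.78e-05 by edgeR). Of its 50-base stretches 36.5% occur elsewhere, mainly in Gm11223, which was not analysed here.

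Stmn2, the growth-cone protein SCG10 (chromosome 3, 8509360 to 8561606, plus strand), was at 164.0, 500.0 and 251.7 CPM in A1G tumours, 583.4, 364.1 and 379.3 in Ptch1 tumours and 447.5, 434.8 and 457.6 in cerebellum. The cerebellum libraries lay close together, and tumours fell on both sides of them. The log2 difference was -0.28 ± 0.32 (95% interval -0.97 to 0.40, adjusted p = 0.503 by edgeR). A1G tumours alone differed from cerebellum by -0.55 ± 0.37 (adjusted p = 0.283), and by -1.10 without A1G replicate 2, which was then called (adjusted p = 0.0164 by edgeR, range 0.0164 to 0.652 over the alternatives).

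Stmn3, known as SCLIP (chromosome 2, 181306459 to 181314500, minus strand), was at 113.9, 118.2 and 157.9 CPM in A1G tumours, 164.4, 174.1 and 155.9 in Ptch1 tumours and 542.8, 380.1 and 253.4 in cerebellum. Every tumour was below every cerebellum library, and the tumours were closer to each other than the cerebellum libraries were. Tumours were 2.68-fold lower (log2 -1.42 ± 0.24, adjusted p = 5.46e-04 by edgeR). The 10 mature neuron markers summed to 470.8 to 1636 CPM in tumours and 8322 to 8929 in cerebellum, and their part in the Stmn3 difference was not tested.

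Stmn4, the RB3 stathmin of neurons (chromosome 14, 66344296 to 66361680, plus strand), was at 39.4, 266.4 and 85.5 CPM in A1G tumours, 167.4, 163.8 and 113.4 in Ptch1 tumours and 73.0, 123.5 and 216.8 in cerebellum. A1G replicates 1 and 2 were the lowest and highest of the 9 libraries, and the groups overlapped. The log2 difference was 0.01 ± 0.49, with a 95% interval of -1.05 to 1.08 (adjusted p = 0.986 by edgeR). The interval runs from 0.482-fold to 2.12-fold, so changes within it are not excluded.

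Each tumour kind was also set against the same cerebellum libraries, so these comparisons share their controls. In A1G tumours 4 members were called higher and 2 lower, against 16.3% and 16.1% of all tested genes. In Ptch1 tumours 5 were called higher and 2 lower, against 20.2% and 19.7%. The medians over the members were 0.22 and 0.50, and over all tested genes 0.03 and 0.00. Tubb5 differed from cerebellum by log2 3.11 ± 0.35 in A1G tumours and 2.76 ± 0.34 in Ptch1 tumours, and Stmn1 was 4.48-fold and 8.01-fold higher. Tubb4a differed by -2.69 ± 0.68 and -3.93 ± 0.72. Leaving out A1G replicate 2 moved the A1G value to -3.90, and leaving out cerebellum replicate 3 moved the values to -1.94 and -3.20, all called.

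**Figure D2:**
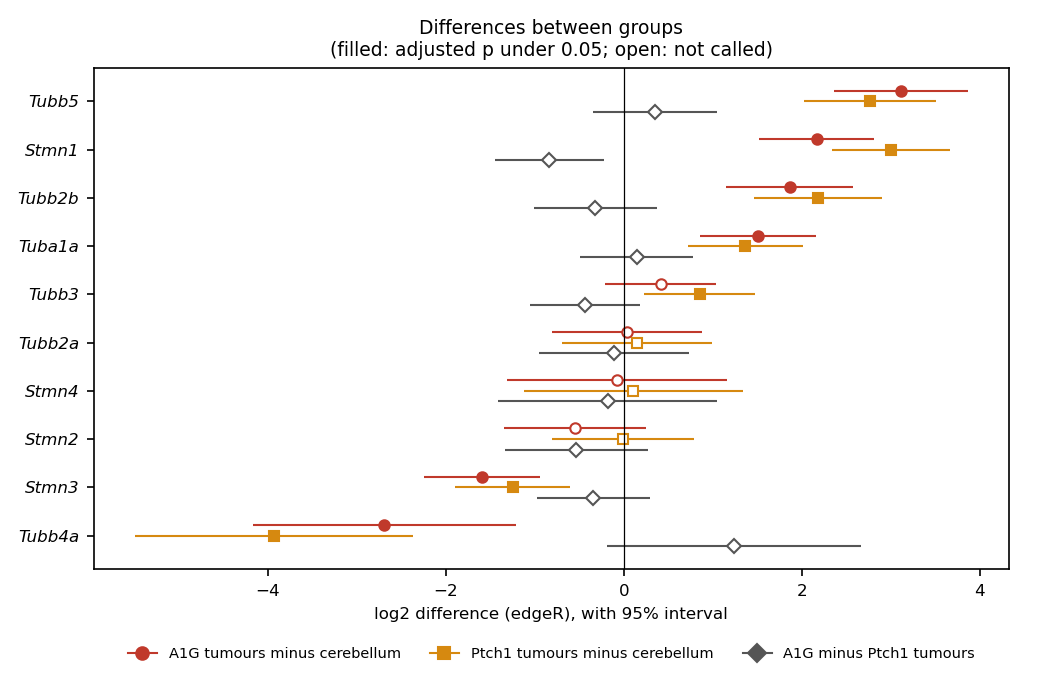
Log2 differences from edgeR (points) with 95% intervals (lines) for the 10 genes; filled points have an adjusted p under 0.05 and open points do not. Tubb5, Stmn1, Tubb2b and Tuba1a are filled to the right of 0 in both tumour kinds against cerebellum, Stmn3 and Tubb4a are filled to the left, and no point of A1G minus Ptch1 tumours is filled.

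No member was called between A1G and Ptch1 tumours, a comparison in which 0.0139% of tested genes were called by edgeR. DESeq2, which called 163 genes in this comparison, and limma also called 0 members. With edgeR 1 member had an unadjusted p under 0.05, against 10.6% of tested genes. That member was Stmn1, 1.79-fold lower in A1G tumours (log2 -0.84 ± 0.28, 95% interval -1.45 to -0.22, adjusted p = 0.348 by edgeR, 0.139 to 0.612 over the alternatives). All 3 A1G tumours lay below all 3 Ptch1 tumours for Stmn1, a separation seen in 15.5% of tested genes in either direction. The summed proliferation markers were at 4974, 1450 and 3678 CPM in A1G tumours and 4901, 6207 and 5374 in Ptch1 tumours. By this sum 2 of 3 A1G tumours lay below the Ptch1 range. Mki67, the largest term of each tumour's sum, was at 3475, 620.3 and 2597 CPM and at 3433, 3946 and 3913. The part of the proliferation markers in the Stmn1 difference was not tested. Tubb4a had the largest fitted difference, log2 1.23 ± 0.66, with a 95% interval of -0.19 to 2.66 (adjusted p = 0.528 by edgeR), and 0.03 without A1G replicate 2. Further marker lists are given for the same comparison: the median log2 difference was 2.42 over 8 Purkinje cell markers (6 at an unadjusted p under 0.05 and 1, Calb1, called), 1.39 over 8 oligodendrocyte markers (4 at an unadjusted p under 0.05, 0 called) and 0.93 over 10 mature neuron markers (3 and 0), against 0.02 over all tested genes. Their part in the members' values was not tested. For the other 8 members the log2 values ran from -0.53 for Stmn2 to 0.35 for Tubb5, and each interval included 0. A p that misses the threshold does not show that the tumour kinds are alike.

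The make-up of each class also differed between tumours and cerebellum. By FPKM within a library, Tubb5 made up 42.2% to 59.4% of beta tubulin in tumours and 8.49% to 18.9% in cerebellum, and Tubb4a 1.02% to 4.59% and 15.6% to 54.0%. Tubb2b took 12.5% to 24.5% in tumours against 7.21% to 10.6%, and Tubb2a 4.47% to 10.1% against 10.2% to 16.9%, the latter separated by little. The split within this pair is uncertain, because its reads are hard to assign. The share of Tubb3 overlapped, at 5.71% to 16.01% and 10.8% to 21.5%. Total beta tubulin was 3097 to 5340 CPM in tumours and 1492 to 2176 in cerebellum. Shares within a class depend on each other, so a rise in the share of 1 isotype lowers the others.

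Among alpha tubulins, Tuba1a made up 52.7% to 62.9% in tumours and 39.7% to 40.9% in cerebellum. Tuba1b took 26.8% to 37.4% against 21.1% to 22.6%, and Tuba1c 9.22% to 10.5% against 6.98% to 8.50%. The split between these genes is uncertain, because they share much sequence. The remainder in cerebellum included Tuba4a, an alpha tubulin of mature neurons, at 21.6% to 22.8% against 0.109% to 0.587% in tumours. Stmn1 formed 42.9% to 72.5% of stathmin FPKM in tumours and 12.2% to 16.04% in cerebellum, and Stmn3 9.52% to 15.2% and 31.7% to 53.3%. The ratio of Stmn1 to Stmn3 was 4.03 to 7.14 in tumours and 0.30 to 0.38 in cerebellum. Total stathmin CPM was 896.5 to 1322 in A1G tumours, 1406 to 1917 in Ptch1 tumours and 1017 to 1213 in cerebellum. The sum overlapped cerebellum in A1G tumours and lay above it in all Ptch1 tumours, while the shares of Stmn1 and Stmn3 differed from cerebellum in both.

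**Figure D3:**
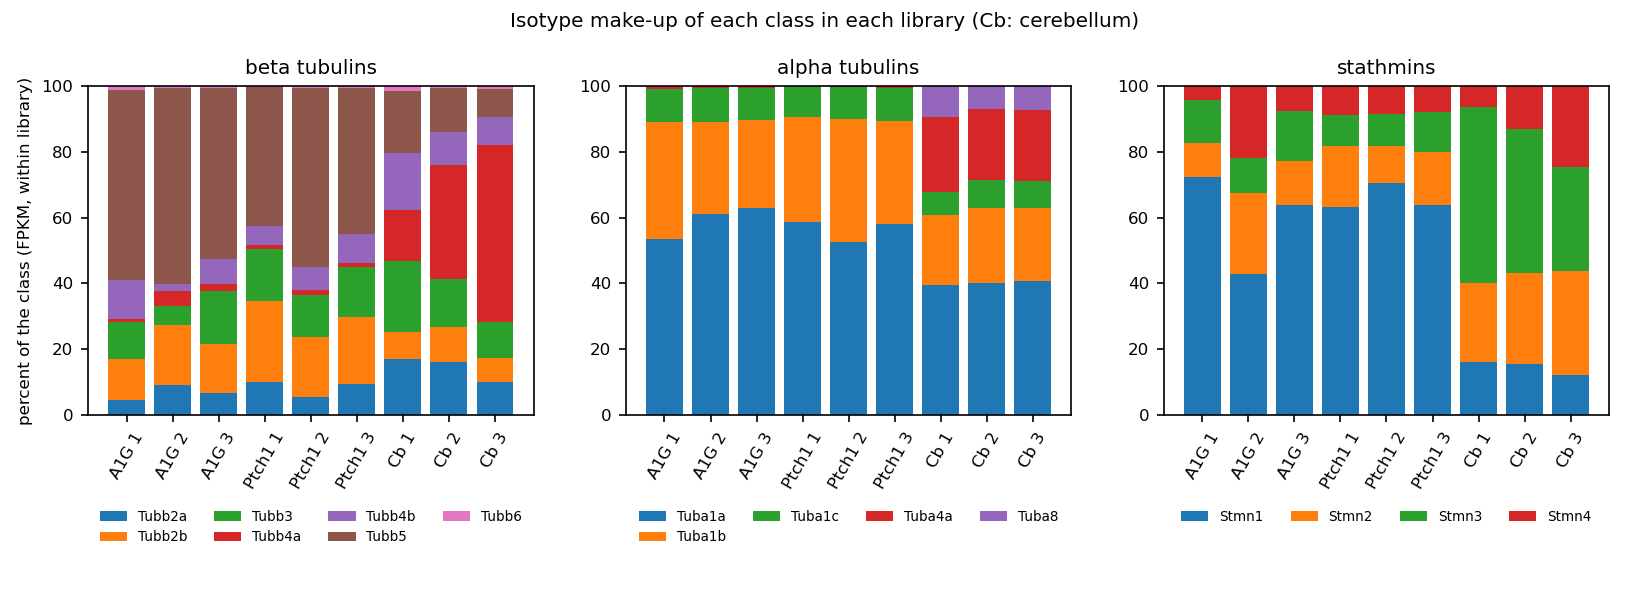
Stacked bars give each gene's percent of its class by FPKM within each library (left to right, A1G, Ptch1 and cerebellum replicates); Tubb1, at most 0.0684% in any library, is not drawn. Tubb5 is 42.2% to 59.4% of beta tubulin in tumours, Tuba4a appears almost wholly in cerebellum, and Stmn1 is 42.9% to 72.5% of stathmins in tumours.

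Ordered by FPKM, Tubb5, Stmn1 and Tuba1a were the 3 highest members in each of the 6 tumours, in an order that changed between libraries. In cerebellum Stmn3 led in replicates 1 and 2 (567 and 389 FPKM), and Tubb4a led in replicate 3 (615 FPKM). Tubb4a was the lowest of the 10 in every tumour, at 15.3 to 118 FPKM.

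The tumour libraries differed among themselves. A1G replicate 2 was the highest tumour for 5 members (Tubb5, Tubb2b, Tubb2a, Tubb4a and Stmn4) and the lowest for 3 (Tubb3, Tuba1a and Stmn1). A1G replicate 1 was the lowest tumour for 6 (Tubb2a, Tubb2b, Tubb4a, Stmn2, Stmn3 and Stmn4). In A1G replicate 2 the 10 newborn neuron markers summed to 5832 CPM, the highest of the 9 libraries. Of these, Neurod1 (1743 CPM), Sox4 (912.3) and Nhlh1 (304.1) were the highest of the tumours there. Sox11 (915.7) was the lowest of the tumours, and the others in the list lay between. The 10 mature neuron markers summed to 1636 in that library, the highest of the tumours, beside the lowest proliferation sum of the tumours. The members themselves went both ways in that library, and the part of these 3 sums in their values was not tested. Deviation from the group mean correlated across genes with GC content in A1G replicate 2 (Spearman 0.225 over 13433 genes, which are not independent), and similarly in cerebellum replicate 3 (0.269) and Ptch1 replicate 3 (0.212). The 10 members' calls against cerebellum after a GC correction were those already given, with Tubb3 added in the comparison of all tumours.

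**Figure D4:**
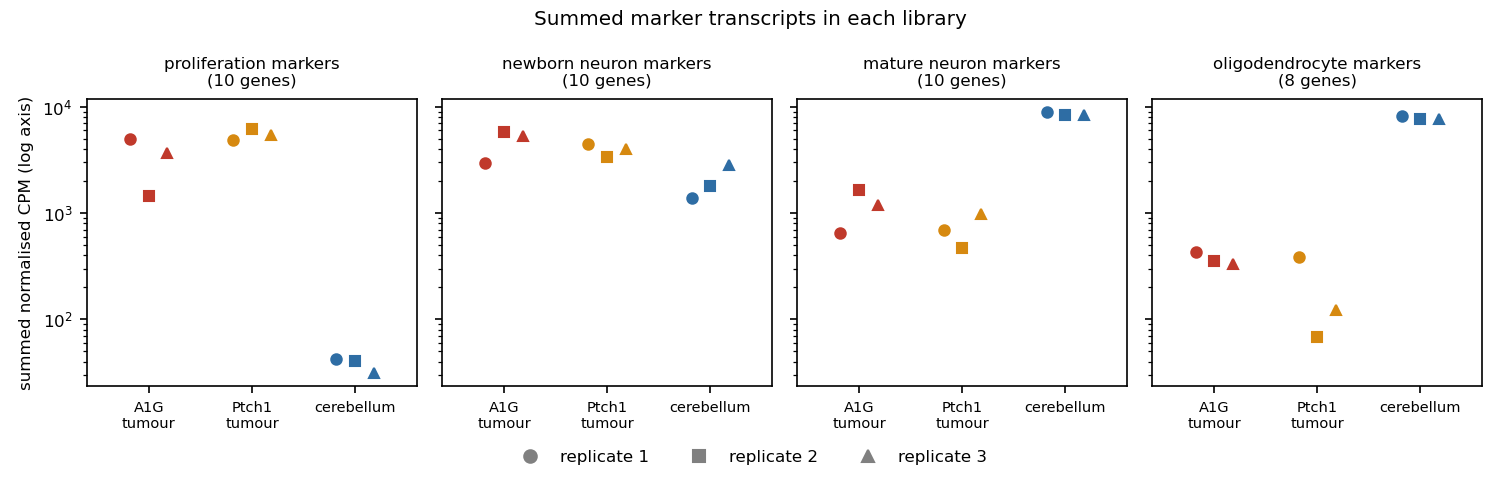
Summed normalised CPM (log axis) of 4 marker lists in each library, by group, with symbols for the replicate number. Proliferation markers are at 1450 to 6207 in tumours and 31.2 to 42.8 in cerebellum, with A1G replicate 2 lowest of the tumours, and mature neuron and oligodendrocyte markers are lower in all tumours than in cerebellum.

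Genes around tubulin biology gave mixed counts in tumours against cerebellum. Over all tested genes 20.7% were called higher and 21.5% lower. Of 10 other tubulins tested, 2 were called higher, Tuba1b and Tuba1c, and 3 lower, Tuba8 (log2 -6.63 ± 0.48), Tuba4a (-5.01 ± 0.41) and the gamma tubulin Tubg2 (-1.51 ± 0.33), the last named after its value was seen. The Tuba8 value rests on 0 to 10 fragments in each tumour library. Tubb4b (0.16 ± 0.33) and Tubb6 (0.28 ± 0.38) were not called. Their median was 0.22, against 0.01 over all tested genes.

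Folding cofactors include the CCT chaperonin, which folds new tubulin, and the cofactors that assemble dimers. Of 15 tested, 7 were called higher, among them the chaperonin subunits Cct7 (log2 1.30 ± 0.22) and Tcp1 (1.23 ± 0.30), and 2 lower, Arl2 (-1.65 ± 0.57) and Tbcel (-0.78 ± 0.20). The median was 0.34. Of 18 modifying enzymes, 4 were higher, including the detyrosinating enzymes Vash2 (2.02 ± 0.62) and Vash1 (1.51 ± 0.21), and 7 lower, including the polyglutamylase Ttll7 (-4.56 ± 0.25) and the deglutamylase family member Agbl2 (-4.45 ± 0.65). The Agbl2 value rests on 1 to 8 fragments in each tumour library. The median over the 18 enzymes was -0.00417.

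Of 17 proteins that bind microtubule ends, sever or depolymerise microtubules, 7 were called higher and 4 lower, with a median of 0.52. The higher ones included the mitotic depolymerising kinesins Kif2c, at 29.0 to 90.4 CPM in tumours and 0 to 0.263 in cerebellum, and Kif18b, at 33.4 to 86.3 and 0 to 0.599, levels in cerebellum that rest on at most 3 fragments in a library. Among the lower ones were the end-binding proteins Clip1 (-2.58 ± 0.25) and Mapre3 (-2.39 ± 0.40). None of the genes in these 4 lists was called between A1G and Ptch1 tumours by edgeR, with 1 or 2 in each at an unadjusted p under 0.05. Over all tested genes 0.0139% were called there, and 10.6% had an unadjusted p under 0.05. DESeq2 (163 genes called in all) called 1 other tubulin, Tuba8, and 1 folding cofactor, Tbcd, higher in A1G tumours, as did edgeR with no filter on low values (81 genes called in all). Both genes were named after their values were seen. Tuba8 rests on few fragments here, 10, 3 and 6 in A1G tumours and 0, 1 and 1 in Ptch1 tumours.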

How the data were processed

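Total RNA was depleted of ribosomal RNA and sequenced on an Ion Proton, per the labels' protocols; the libraries that ran on the same chip are not named in the sources used here. The submitters' processing notes name mm10 and Bowtie 0.12.2 without a role, and the annotation and counting tool are not stated. Per the file headers, the deposited tables hold expected counts (raw fragments per gene), a signal made by the authors by multiplying them by 1 scaling factor per library, and FPKM computed by the authors from the scaled fragments. The signal was used only to check the scaling.

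Fragments were rounded to whole numbers and fitted with edgeR 4.0.16 (TMM, quasi-likelihood, 1 mean per group, 9 libraries) over the 14337 genes that reached FPKM 1 in 3 or more libraries. In each of the 4 contrasts, p-values had a Benjamini-Hochberg adjustment across the whole table. FPKM values were compared only within a library, except in the limma alternatives. The script was tested on simulated data. Intervals are 95%. Alternatives used DESeq2 1.42.0, limma 3.58.1, other scalings and filters, a replicate block, summed near-identical genes and each library left out. A correction for GC content and the sum with Tubb2a-ps2 were chosen after seeing the data. Sequences and coordinates come from GENCODE M21, which matched 10 of 10 members.

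All 10 members were named whatever their values, and of each list the 2 called genes with the largest change in each direction against cerebellum. Members and lists were chosen with earlier results of these data known. Replicates differed by more than sampling noise in every pair (chi-square divided by its degrees of freedom 11.3 to 45.8). Of the 9 marker lists, those not described elsewhere gave in tumours against cerebellum 6 of 10 newborn neuron, 6 of 8 granule neuron progenitor and 4 of 8 microglia markers called higher, and 6 of 8 astrocyte and Bergmann glia and 3 of 7 endothelial markers called lower. Over all tested genes 20.7% were called higher and 21.5% lower in that comparison.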

Additional observations from a re-analysis of the deposited data

Results flagged for a closer look

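Tubb4a in A1G replicate 2 stood apart from the other 5 tumours. It was at 234.5 CPM, and the nearest tumour was at 65.0, a gap of 0.833 of the whole range, above Dixon's 95% critical value for 6 samples. All 10 members were examined in this way, and chance marks about 1 in 20 groups.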

How the results depend on the processing

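Of 174 counts of members called under alternatives, 173 stayed within 1.5 times the value reported. The exception was the count called lower in Ptch1 tumours against cerebellum, which was 1 with a GC correction and replicate block together, where Stmn3 had an adjusted p of 0.0545 by edgeR. This rule lets a count of 4 or 5 gain or lose 1 member. Within it, Tubb3 became called in 6 of 21 alternatives over all tumours and lost its call in 5 of 22 in Ptch1 tumours. The replicate block alone changed no call of a member (4 higher and 2 lower in tumours against cerebellum); same-numbered libraries deviated together with correlations of -0.07 to 0.21, so the numbers are not taken to pair samples.

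Only values that were not called changed sign. Stmn4 in tumours against cerebellum was -0.0223 with median-of-ratios scaling, -0.0227 with DESeq2, -0.0311 and -0.0327 with limma at pseudocounts 1 and 0.1, -0.0548 with a stricter filter and -0.0388 with the replicate block, and -0.52 to 0.52 with 1 library left out. Tubb2a in A1G tumours against cerebellum was -0.0971 and -0.0992 with limma at those pseudocounts, -0.0123 with the stricter filter and -0.0455 with the replicate block, and -0.59 to 0.36 with 1 library left out. Stmn2 in Ptch1 tumours against cerebellum was 0.0490 with no filter and -0.27 to 0.11 with 1 library left out, and Stmn4 in A1G tumours against cerebellum 0.0693 with the GC correction and -1.14 to 0.44. Leaving out 1 library also gave -0.22 to 0.25 for Tubb2a over all tumours and -0.20 to 0.60 for Stmn4 in Ptch1 tumours against cerebellum. Between tumour kinds it gave -0.73 to 0.22 for Tubb2a, -0.14 to 0.31 for Tuba1a and -1.25 to 0.25 for Stmn4. The cause was not tested. Shares computed from raw fragments, not divided by length, moved by more than 1 SD in 17 of 51 cases. Each kept its order or overlap between tumours and cerebellum. Leaving out 1 library moved none of 153, but that outcome was fixed in advance. With 3 libraries in a group, leaving out 1 cannot move the mean by more than 1 SD. Without a filter the median of all genes in tumours against cerebellum shifted by 0.14.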
